A study of Mus musculus with 4 samples.

Results

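Of the 5123 INO80 peaks listed for replicate 1, 401 (7.83%) shared no base with any of the 7836 replicate 2 peaks, and these 401 regions are described here. They were chosen by their presence in the list of replicate 1 and their absence from that of replicate 2, so fold enrichment and width in replicate 1 are a description. Both libraries came from spermatocytes of DBA/2J x C57BL/6J F1 mice. Fertilysin, which blocks the retinoic acid signal, was injected for 7 days from 2 dpp (days after birth). Retinoic acid followed at 9 dpp, and cells were taken 8 days later, at early zygotene, on a 28% Percoll gradient. Per the labels, the 2 input libraries came from the same kind of cells, while the sources used here do not say how many animals went into a library. No RNA was measured, so the labelled cell type could not be checked against expression.

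INO80 is the ATPase of a remodelling complex that slides nucleosomes and exchanges histones at promoters and at stalled or broken DNA. In mammals the complex contains YY1, a zinc finger protein that binds DNA on its own, together with metazoan subunits such as Tfpt and Nfrkb. At early zygotene, homologues start to align while recombination acts on breaks made at leptotene.

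INO80 regions listed in replicate 1 alone lay mainly near ends of protein-coding genes (84.0%), as did replicate 1 regions shared with replicate 2 (74.1%). Of 91 cytosolic ribosomal protein genes, 8 (8.79%) were near a region of replicate 1 alone, against 1.84% of all genes. Promoters at regions of replicate 1 alone held the letters of a YY1 site in 9.62% of cases, against 2.18% at shared regions. The strongest region lay at Ube2f, which encodes a conjugating enzyme for the ubiquitin-like protein NEDD8. Its promoter is shown because it carried the highest fold (8.33). That of Tfpt is shown because it is a subunit of the INO80 complex itself, and that of Wdr82, a subunit of a histone H3 lysine 4 methyltransferase complex, because it held both a YY1 and a CRE sequence. Each runs from 250 bases before to 50 bases after the transcription start site (TSS), 5′ to 3′ on the gene's strand, from RefSeq on GRCm38.p6. Capitals mark AAGATGGCG (YY1), TGACGTCA (CRE, bound by CREB and ATF factors) and CCGGAAG or its complement (ETS factors). The Ube2f promoter is chr1:91250054-91250353, plus strand, that of Tfpt chr7:3629880-3630179, minus strand, and that of Wdr82 chr9:106170679-106170978, plus strand.
Ube2f: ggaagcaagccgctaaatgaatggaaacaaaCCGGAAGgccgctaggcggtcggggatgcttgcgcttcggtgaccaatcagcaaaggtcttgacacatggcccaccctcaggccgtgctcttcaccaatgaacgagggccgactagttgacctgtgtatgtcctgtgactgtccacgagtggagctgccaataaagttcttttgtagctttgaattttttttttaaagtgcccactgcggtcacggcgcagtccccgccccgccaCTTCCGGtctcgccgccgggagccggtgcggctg
Tfpt: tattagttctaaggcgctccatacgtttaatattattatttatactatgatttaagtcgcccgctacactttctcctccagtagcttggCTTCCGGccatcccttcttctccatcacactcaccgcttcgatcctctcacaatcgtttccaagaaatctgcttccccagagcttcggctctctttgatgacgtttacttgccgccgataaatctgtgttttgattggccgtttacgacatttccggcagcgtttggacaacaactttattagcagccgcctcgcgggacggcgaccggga
Wdr82: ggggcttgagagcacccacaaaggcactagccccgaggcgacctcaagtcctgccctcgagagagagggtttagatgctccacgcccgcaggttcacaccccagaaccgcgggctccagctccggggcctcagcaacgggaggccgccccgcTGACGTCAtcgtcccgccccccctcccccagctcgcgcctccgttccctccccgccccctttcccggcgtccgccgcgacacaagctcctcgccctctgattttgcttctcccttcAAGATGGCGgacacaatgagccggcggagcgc

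The next 5 promoters show where the same letters sat in other members. AI837181, Pcif1, Sbno1 and Hcfc1 had, with Wdr82, the highest folds among members with the YY1 letters, and Birc2 shows the CRE letters. Each is cut to 110 bases, from 60 before to 49 after the TSS, with the letters in capitals as above. They lie at chr19:5425084-5425193, plus strand, chr2:164879308-164879417, plus strand, chr5:124425553-124425662, minus strand, chrX:73966308-73966417, minus strand, and chr9:7837008-7837117, minus strand.
AI837181: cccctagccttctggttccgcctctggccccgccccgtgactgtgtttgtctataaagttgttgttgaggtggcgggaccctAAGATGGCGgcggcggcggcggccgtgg
Pcif1: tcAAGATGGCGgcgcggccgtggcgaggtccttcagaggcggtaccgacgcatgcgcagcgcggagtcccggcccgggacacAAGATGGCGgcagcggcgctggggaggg
Sbno1: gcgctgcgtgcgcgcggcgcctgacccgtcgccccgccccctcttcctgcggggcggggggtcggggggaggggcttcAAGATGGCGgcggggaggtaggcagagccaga
Hcfc1: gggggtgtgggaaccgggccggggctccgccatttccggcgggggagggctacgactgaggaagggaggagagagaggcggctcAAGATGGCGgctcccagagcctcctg
Birc2: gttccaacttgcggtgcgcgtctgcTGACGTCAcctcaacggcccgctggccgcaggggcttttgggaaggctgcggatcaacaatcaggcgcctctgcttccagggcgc

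Sequencing gave 98.1 M (1 M is 1e6) uniquely mapped reads for INO80 replicate 1, 82.6 M for replicate 2, and 70.4 and 39.6 M for the inputs, as the authors deposited them. Each replicate has 1 peak list, with no reads or coverage outside its peaks, so a region in the list of replicate 1 alone is not shown to be unbound in replicate 2. The lists used here give no replicate 2 value for the 401 members. Peaks are not replicates, so no test was run, and shares carry 95% Clopper-Pearson intervals that cover counting error only. Dates written in the peak names differ between the replicates, so replicate and date cannot be told apart.

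Members were narrow and weak within the replicate 1 list. Their width had a median of 467 bp (quartiles 391 and 577, range 328 to 3534), against 798 bp (568 and 1111) for the 4722 peaks with a partner. Fold enrichment, the authors' own value for each peak, had a median of 2.74 (quartiles 2.60 and 3.02, range 1.66 to 8.33), against 3.29 (2.90 and 3.90). Fold was under 3 in 297 members (74.1%) and over 4 in 12. Of the weakest quartile of replicate 1 peaks by fold, 19.7% had no partner, and the share was 7.73%, 2.81% and 1.09% in the next 3 quartiles. A −log10 q of 3 or more was reached by 119 members (29.7%, interval 25.2 to 34.4) and by 69.5% of peaks with a partner.

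**Figure D1:**
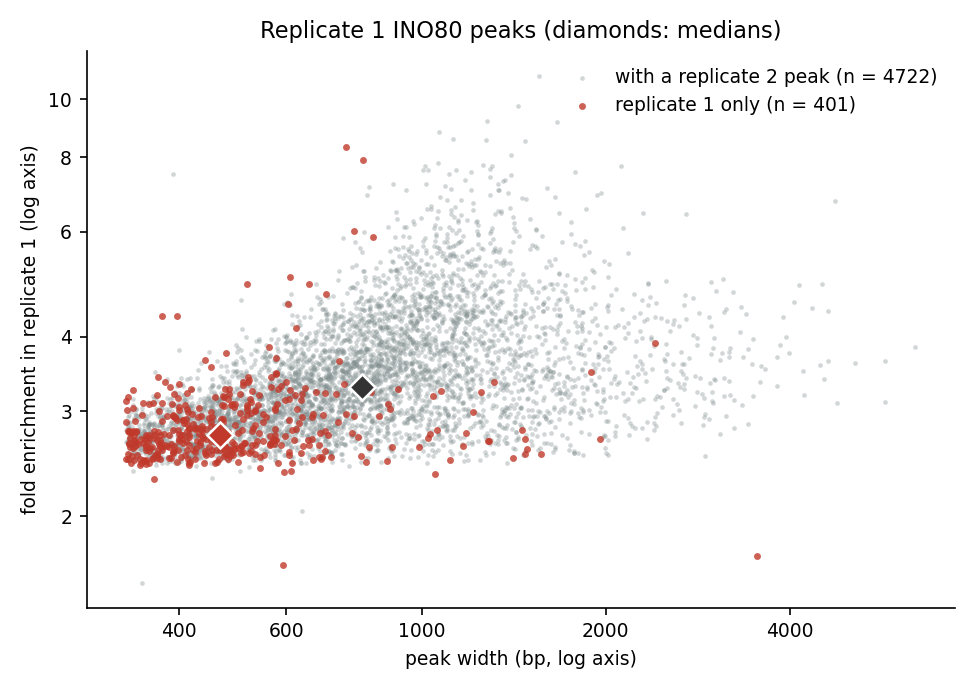
Fold enrichment against peak width for every replicate 1 INO80 peak, both on log axes. Red points are the 401 peaks without a replicate 2 peak, grey points the 4722 with one, and diamonds the medians of each group (467 bp and 2.74 against 798 bp and 3.29). A few red points, led by Ube2f at 8.33, stand well above the rest of their group.

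Most members were far from any replicate 2 peak. The distance to the nearest had a median of 67090 bp (quartiles 31348 and 132512), and 3 members lay within 1 kb of one. At the edge of the rule, the member at Tsc22d2 lay 31 bp from a replicate 2 peak and had a fold of 2.68, and the next nearest, at Phf12 and Foxb2, lay 808 and 861 bp away with folds of 2.53 and 2.54. On the other side of the rule, the smallest overlap that made a partner was 29 bp. The 5 lowest folds among the members ran from 1.66 to 2.37. The members with folds of 1.66 and 1.71 had a −log10 q of 5.44 and 7.61, against a median of 2.12 over all members.

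The strongest member was at Ube2f (fold 8.33, chromosome 1, 91249846 to 91250597), followed by Rmnd1, a factor of mitochondrial translation (7.91, chromosome 10, 4432122 to 4432922). In the promoter sequences, the TSS nearest the centre of the Rmnd1 region was that of Armt1, and TSSs on both strands lay within 1 kb. Rpl27, a protein of the large ribosomal subunit, had a fold of 6.01 (chromosome 11, 101441921 to 101442693), and Pgs1, an enzyme of cardiolipin synthesis, 5.88 (chromosome 11, 117986537 to 117987367). Prrc2a, which encodes an RNA-binding protein, stood at 5.03, and both Aspscr1, which retains glucose transporters inside cells, and the nuclear pore gene Nup93 at 4.90. The shared start of AI837181 and Drap1, a repressor of basal transcription, had 4.71. Kif3b, a motor subunit of intraflagellar transport, had 4.54, and the start shared by Tfpt and the splicing gene Prpf31 had 4.33 (chromosome 7, 3629717 to 3630091). These were the 10 highest folds, and each of the 10 regions lay within 1 kb of a protein-coding gene end. The region at Rmnd1 was also the 1 member of 401 that overlapped the authors' set of peaks reproducible between replicates. In the authors' deposited table that set gives it as chromosome 10, 4432040 to 4432931, centred 97 bp upstream of the Rmnd1 TSS, although the nearest peak in the replicate 2 list used here was 97296 bp away. Whether that list holds every replicate 2 peak the authors called could not be settled from the files, and the absence of the 401 members from replicate 2 rests on it.

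Members lay at gene ends more often than did shared peaks. A protein-coding gene end was within 1 kb of 337 of the 401 (84.0%, interval 80.1 to 87.5) and of 74.1% (72.8 to 75.3) of peaks with a partner. Gene end here means the first or last base of a gene in RefSeq, and all 5123 replicate 1 peaks gave 74.9%. The gap was also present among peaks of like fold. In the weakest quartile of the list, 81.3% of 252 members (76.0 to 86.0) and 70.7% of 1029 partnered peaks (67.9 to 73.5) were near a gene end. In the second quartile the shares were 85.9% (77.4 to 92.0) and 72.1% (69.4 to 74.6), in the third 94.4% (81.3 to 99.3) and 75.2% (72.7 to 77.6), and in the strongest 92.9% of 14 members (66.1 to 99.8) and 77.6% (75.2 to 79.9), where the intervals overlap. Farther than 5 kb from every protein-coding gene end were 39 members (9.73%, 7.01 to 13.1), against 13.2% of shared peaks (12.3 to 14.2), and these intervals overlap. Some genes start inside the outermost ends of their RefSeq entry. With RefSeq promoter TSSs counted as well, 90.8% of members (87.5 to 93.4) and 83.0% of shared peaks (81.9 to 84.0) lay within 1 kb of a gene end or TSS. Gene ends lay inside the peak for 41.4% of members and 44.5% of the wider shared peaks.

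Among members over 5 kb from the outermost ends of every protein-coding gene, the region 10873 bp from Ildr2 on chromosome 1 (166305563 to 166305959) had a fold of 4.33 and lay 2671 bp from a replicate 2 peak. The next 4 by fold, nearest to Pfdn4, Tasor, Cbl and Baiap2l1, ran from 3.08 to 3.22. Far from outermost ends is not far from promoters: the region nearest to Tasor lay 88 bp from a Tasor TSS, and that nearest to Baiap2l1 lay 50 bp from the TSS of Bri3. A TSS was within 1 kb of 11 of the 37 such members on chromosomes with promoter sequences (29.7%, 15.9 to 47.0), and of 30.1% of such shared peaks (26.4 to 33.9). Of the 39 members over 5 kb from protein-coding gene ends, 13 lay within 1 kb of the end of a gene of another type. The widest member spanned 3534 bp on chromosome 11 (3101076 to 3104609), 27241 bp from Sfi1, with a fold of 1.71. The other wide members lay at Csf2ra, a cytokine receptor gene (2410 bp, fold 3.90), near Asmt, the last enzyme of melatonin synthesis (1955 bp, 2.70), between the chaperone gene Dnajc2 and the proteasome gene Psmc2 (1889 bp, 3.49), and at Rc3h1, a regulator of mRNA decay (1567 bp, 2.54).

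Members lay near 2 or more genes more often than did shared peaks. At 65 members (16.2%, interval 12.7 to 20.2) 2 or more protein-coding genes had an end within 1 kb, against 9.00% (8.20 to 9.85) of shared peaks. Such ends can be first or last bases, so these are not all paired starts. Promoter sequences on hand gave a protein-coding TSS within 1 kb for 312 of the 386 members on the chromosomes they cover. TSSs on both strands lay within 1 kb of 51 of the 312 (16.3%, 12.4 to 20.9), against 6.64% (5.78 to 7.58) of 3029 shared peaks. The regions at Tfpt and Prpf31, at Sf3b3 and Cog4, and at Lias and Rpl9 are examples. Peak centres fell downstream of the TSS in 81.7% of members and 80.3% of shared peaks. The median position of the centre was 164 bp downstream of the TSS in members (quartiles 49.5 and 285) and 210 bp in shared peaks (47.0 and 381).

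Of all 21887 protein-coding genes, 403 (1.84%) had an end within 1 kb of a member, and 3895 (17.8%) had one within 1 kb of a replicate 1 peak with a partner. Genes near both kinds numbered 3. Among 91 cytosolic ribosomal protein genes, 8 (8.79%, interval 3.87 to 16.6) were near a member and 17 (18.7%) near a shared peak. The 8 were led by Rpl27 (fold 6.01), Rps3a1 (4.14), Rpl35a (2.99) and Rpl26 (2.88). The others were Rps7, Rpl9, Rpl3 and Rps15a, with folds from 2.53 to 2.82.

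Splicing genes gave 3 of 30 (10.0%, 2.11 to 26.5): Prpf31 (4.33), the U2 component Sf3b3 (3.69) and the Sm protein gene Snrpd1 (3.21). Ubiquitin ligases, conjugating enzymes and proteases, taken by a symbol pattern, gave 12 of 319 (3.76%, 1.96 to 6.48). The highest folds in that class were at Cul5 (2.96), Rnf180 (2.94), Trim37 (2.94) and Ube2r2 (2.76). That pattern passed over Ube2 names that end in a letter, Ube2f (8.33) among them. With every Ube2 name the count was 13 of 335 (3.88%, 2.08 to 6.54), a class widened after its values were seen. Intervals of these lists and of the ribosomal proteins, 3 of the 32 lists and classes, lay above the 1.84% of all genes, although the ubiquitin interval overlaps that of all genes (1.67 to 2.03).

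For other lists of basic cell functions the interval, taken by gene ends, held the background. Proteasome subunits gave 3 of 40 (7.50%, 1.57 to 20.4), namely Psmc2 (3.49), Psmc6 (3.18) and Psmd11 (2.85), and 1 of the 40 was near a shared peak. Mitochondrial ribosomal proteins gave 4 of 78 (5.13%, 1.41 to 12.6), which were Mrpl37 (3.10), Mrpl48 (2.91), Mrps28 (2.81) and Mrps7 (2.66). Translation factors and tRNA synthetases gave 2 of 44, the release factor gene Etf1 (2.80) and Eif3b (2.69), and RNA polymerase and general transcription genes 1 of 38, Taf2 (2.93). Respiratory chain genes gave 2 of 100 (2.00%), Ndufaf8 (3.17) and Cox6c (2.74).

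Developmental, histone and spermatogonial genes were frequent near shared peaks, and no member lay near any of those listed. None of 60 developmental transcription factor genes was near a member, and 27 (45.0%) were near a shared peak. None of 101 histone genes was, against 51 (50.5%), and none of 27 spermatogonial genes, against 18 (66.7%). With 1.84% as the background, zeros in lists of these sizes are within counting error, whose upper limits were 5.96%, 3.59% and 12.8%. Read among genes near any replicate 1 peak, the share near a member was 9.38% (8.53 to 10.3) for all 4295 such genes. It was 0 of 51 for histones (up to 6.98%), 0 of 27 for developmental transcription factors (up to 12.8%) and 0 of 18 for spermatogonial genes (up to 18.5%). For cytosolic ribosomal proteins it was 8 of 25 (32.0%, 14.9 to 53.5) and for proteasome subunits 3 of 4 (interval 19.4 to 99.4), both above that of all such genes. For splicing genes (3 of 9, 33.3%, 7.49 to 70.1) and the ubiquitin class (12 of 84, 14.3%, 7.61 to 23.6) the interval held the share of all such genes. With RefSeq TSSs counted as well, the ubiquitin class gave 16 of 92 (17.4%, 10.3 to 26.7). That interval lay above the 9.23% (8.41 to 10.1) of all such genes. Splicing genes then gave 3 of 10 (6.67 to 65.2), an interval that held it. Histone genes sit in clusters and can share a peak, so they are fewer regions than genes. Hoxb5 (fold 2.52) was the 1 Hox gene of 39 near a member, with 8 near shared peaks.

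**Figure D2:**
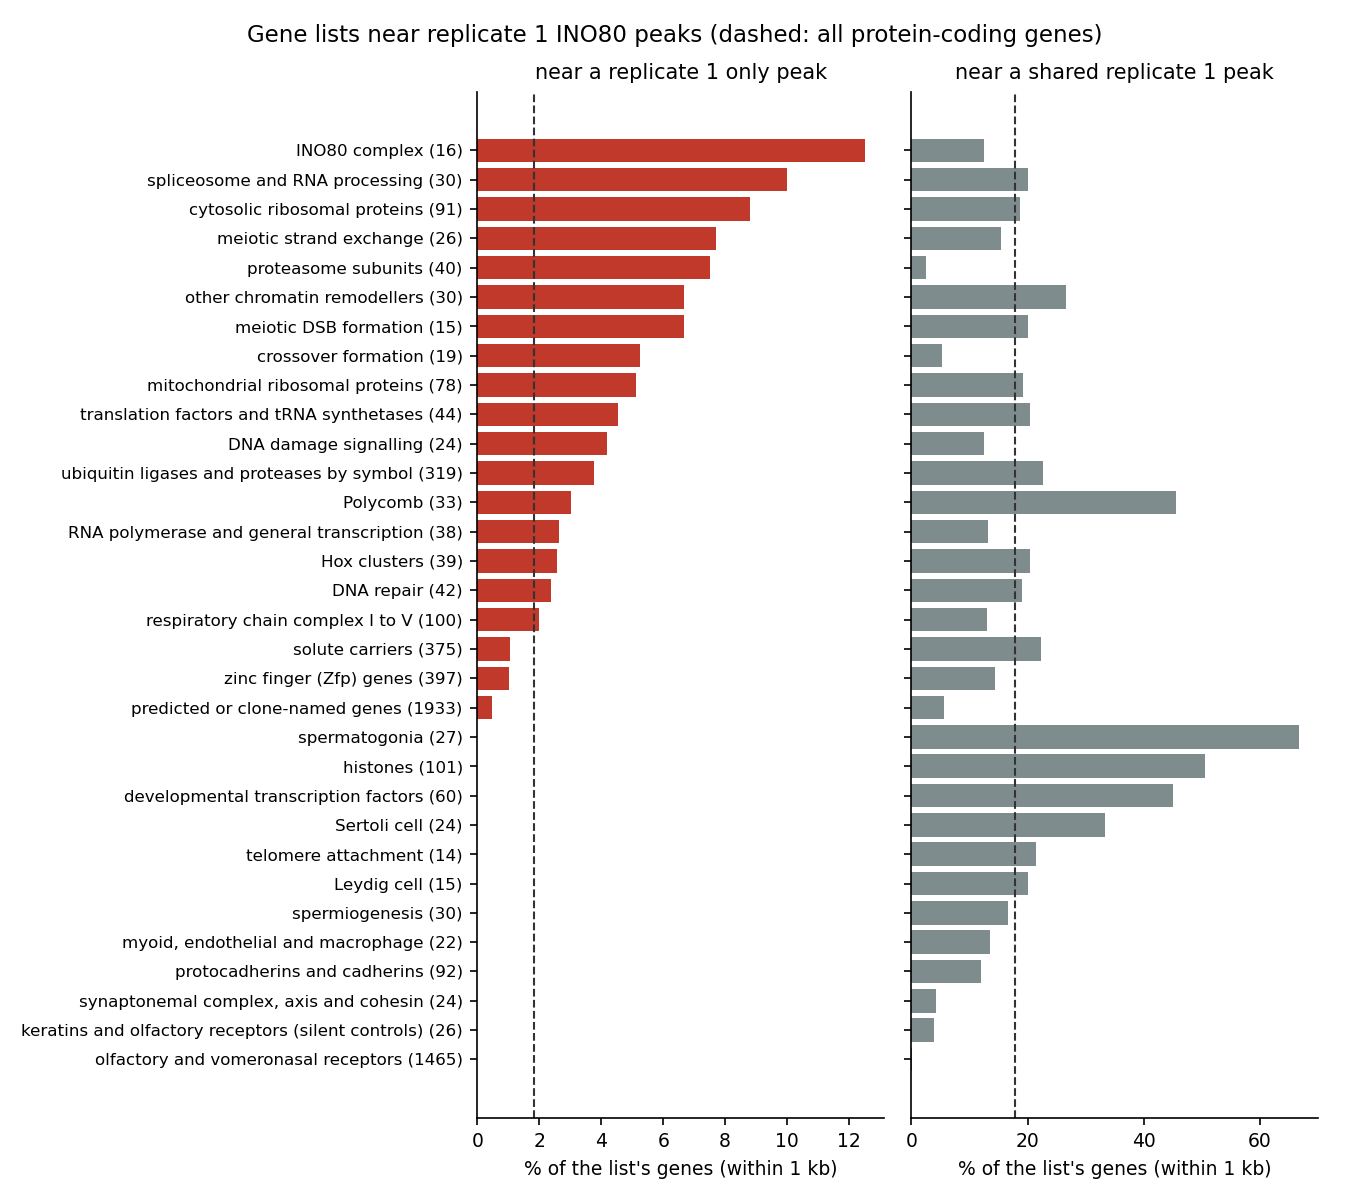
Share of each gene list (number of genes in brackets) with an end within 1 kb of a replicate 1 only peak (left) or of a replicate 1 peak shared with replicate 2 (right), in percent on separate linear scales. Dashed lines mark all protein-coding genes, 1.84% and 17.8%. Ribosomal and splicing genes exceed the line on the left, as do most other lists above 0 there, led by the INO80 complex (12.5%). Only the cytosolic ribosomal, splicing and ubiquitin intervals lay above it. Spermatogonial, histone and developmental genes are at 0 on the left but exceed the line on the right.

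Chromatin genes included subunits of INO80's own complex. Of 16 INO80 complex genes, 2 were near a member, Tfpt (4.33) and Nfrkb (2.65), a share of 12.5% with an interval of 1.55 to 38.3 that holds the background. Among 30 other remodellers these were Rsf1, of the RSF complex (3.24), and Chd8 (2.61), with 8 near shared peaks. Polycomb genes gave 1 of 33, Scmh1 (2.79), with 15 (45.5%) near shared peaks.

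Meiotic genes near members were few in number, and the interval of each meiotic list held the background. In the break formation list, 1 of 15 genes (6.67%, 0.169 to 31.9) was near a member. It was Zcwpw1, a reader of histone marks that PRDM9 writes at hotspots (fold 2.47). The peak lay 826 bp from the outermost end of Zcwpw1 and 181 bp from a Zcwpw1 TSS. Xrcc2, a gene of homologous recombination (2.67), and Rpa2, a subunit of the single-strand binding protein RPA (2.56), were the 2 of 26 strand exchange genes (7.69%, 0.946 to 25.1). Hfm1, a helicase (2.59), was the 1 of 19 crossover formation genes (5.26%, 0.133 to 26.0). Nbn, of the MRN complex that senses breaks (2.96), was the 1 of 24 DNA damage signalling genes (4.17%, 0.105 to 21.1). Polb, the polymerase of base excision repair, had 3.56 and was the 1 of 42 DNA repair genes (2.38%, 0.0603 to 12.6). Each of these intervals holds the background. None of 24 synaptonemal complex, axis and cohesin genes and none of 14 telomere attachment genes in these lists had an end, or a RefSeq TSS, within 1 kb of a member. The cohesin gene Stag1 (fold 2.59) and the cohesin loader gene Mau2 (2.56) are not in the list and had a TSS within 1 kb of a member, a pair named after their values were seen. From the authors' curated list of meiotic genes, 5 of the 139 that matched a gene were near a member (3.60%, 1.18 to 8.19), among them Hsp90aa1 (3.19), Nbn, Hfm1 and Zcwpw1, and 15 (10.8%) were near a shared peak. That interval holds the background of 1.84%.

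None of 24 Sertoli cell, 15 Leydig cell, 22 myoid, endothelial and macrophage or 30 spermiogenesis genes had an end within 1 kb of a member, and 8, 3, 3 and 5 of them were near shared peaks. In lists this small a 0 allows shares above the background. Silent controls gave 0 of 26 keratin and chemoreceptor genes and 0 of 1465 olfactory and vomeronasal receptor genes, a share of up to 0.251%. Solute carriers (4 of 375, 1.07%) and Zfp zinc finger genes (4 of 397, 1.01%) stood near the background, with Slc18a1 (3.02) and Zfp438 (2.92) highest in each. Protocadherins and cadherins gave 0 of 92 and genes with predicted or clone names 9 of 1933 (0.466%, 0.213 to 0.882).

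Member promoters were CpG-rich and differed from shared ones in short sequences. Median GC was 63.3% at the 312 member promoters (quartiles 58.3 and 68.7), 66.3% at the 3029 shared ones and 56.3% over 17492 protein-coding genes. The ratio of observed to expected CpG, near 1 in unmethylated CpG islands, had medians of 0.876, 0.826 and 0.576. Of 15 short sequences searched on both strands, 6 had a member interval above that of shared promoters. YY1's AAGATGGCG was in 30 of 312 (9.62%, interval 6.58 to 13.4), against 2.18% of shared promoters (1.69 to 2.76), 0.985% of 1523 at replicate 2 only peaks (0.552 to 1.62) and 1.94% of all genes (1.74 to 2.16). CRE's TGACGTCA was in 27 (8.65%, 5.78 to 12.3), against 2.58%, 1.64% and 2.34%.

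ETS and NRF1 letters were also more frequent at members. CCGGAAG was in 21.8% of member promoters (17.3 to 26.8), 10.6% of shared ones (9.52 to 11.7) and 11.9% of all genes. CGCATGCG, the core of the site for NRF1, a regulator of nuclear genes for mitochondria, was in 8.01% (5.25 to 11.6), 2.84% (2.28 to 3.49) and 2.54%. The other pair among the 6 were shorter forms, ATGGCGG (17.9% against 7.03%), which overlaps the YY1 letters in part, and TGACGT (20.5% against 10.1%), which lies inside the CRE letters. ZBTB33's CTCGCGAG was in 3.53% (1.77 to 6.22) against 1.32% (0.945 to 1.79), with intervals that just meet. A longer form of it with 10 letters was in 2.56% (1.11 to 4.99) against 0.561% (0.327 to 0.897), with intervals apart, so whether ZBTB33 letters separate depends on the string. The Sp/Klf letters GGGCGG did not separate the groups, at 73.4% and 74.6%, against 46.3% of all genes. For NF-Y CCAAT (40.1% against 34.7%), E2F TTCCCGC (10.6% against 9.48%), the E-box CACGTG (11.2% against 10.3%), TATAAA (4.49% against 6.11%), CTTTTC (14.7% against 14.8%), CTTTCC (26.6% against 23.1%) and TCCCA (55.8% against 57.1%) the intervals overlapped. All 6 strings that separated the groups hold a CpG, as do the Sp/Klf, E2F and E-box strings, which did not, and the CpG ratio was higher at members than at shared promoters. Its part in these shares was not tested.

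**Figure D3:**
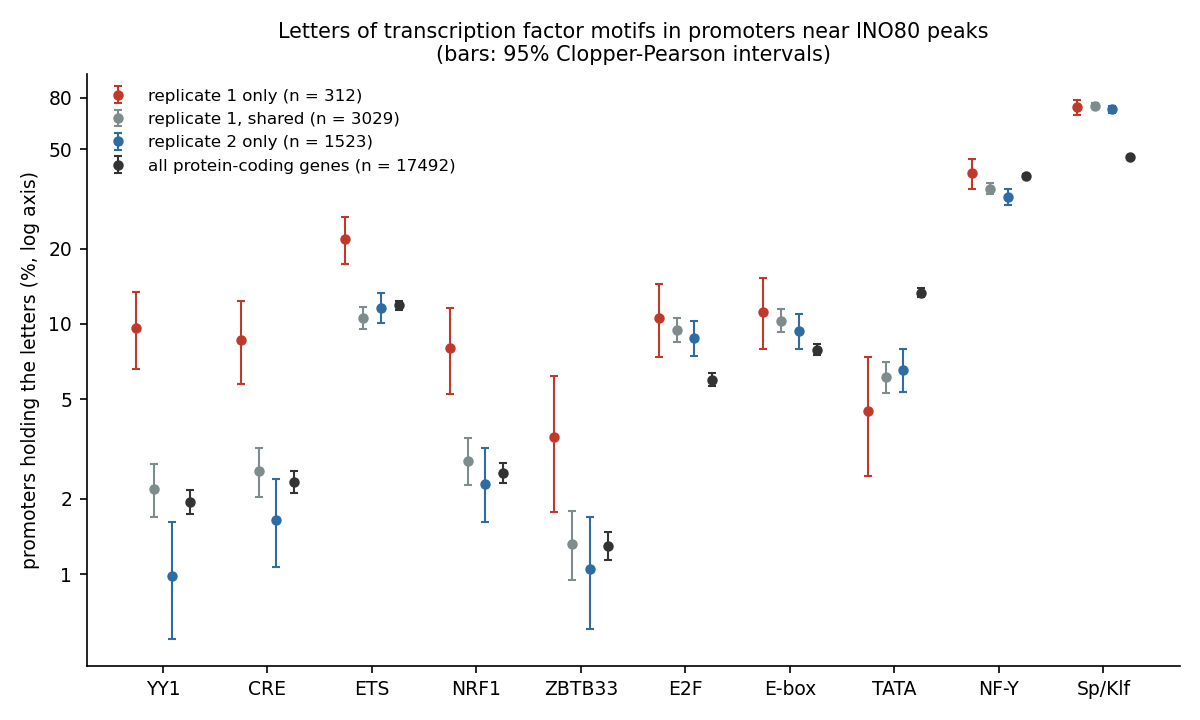
Percent of promoters (300 bases, log axis) that hold the letters of 10 motifs on either strand, at replicate 1 only peaks, shared replicate 1 peaks, replicate 2 only peaks and all protein-coding genes, with 95% Clopper-Pearson intervals. YY1, CRE, ETS and NRF1 letters stand higher in the red points (9.62%, 8.65%, 21.8% and 8.01%) than in every other group, and Sp/Klf letters do not.

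Within the bases searched, YY1 letters clustered just after the TSS. The search ended 50 bases after the TSS, so matches farther downstream could not be seen. Of 34 matches in member promoters, 20 began from 0 to 50 bp after the TSS, 26 read on the strand of the gene, and the median start was 11.5 bp after the TSS. In the promoters printed above, the match nearest the start lay 18 bp after the TSS at Sbno1 and Wdr82, 22 bp at AI837181 and Pcif1, and 24 bp at Hcfc1. Pcif1, which encodes a methyltransferase of the mRNA cap, and the transcriptional cofactor Hcfc1 each held a second copy, 58 and 168 bp before the TSS. Shared promoters with the letters had a median start of 13.0 bp after the TSS, with 46 of 69 matches from 0 to 50 bp. The letters include ATG, and whether they overlap a coding start was not examined. CRE letters lay upstream, with 25 of 29 matches in members between 100 bp before and 50 bp after the TSS and a median of 48.0 bp before it. At the ribosomal protein gene Rpl26 the match began 134 bp before the TSS, and at Birc2, an inhibitor of apoptosis, 35 bp. Both letters together were in 3 member promoters, and either in 54 of 312.

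**Figure D4:**
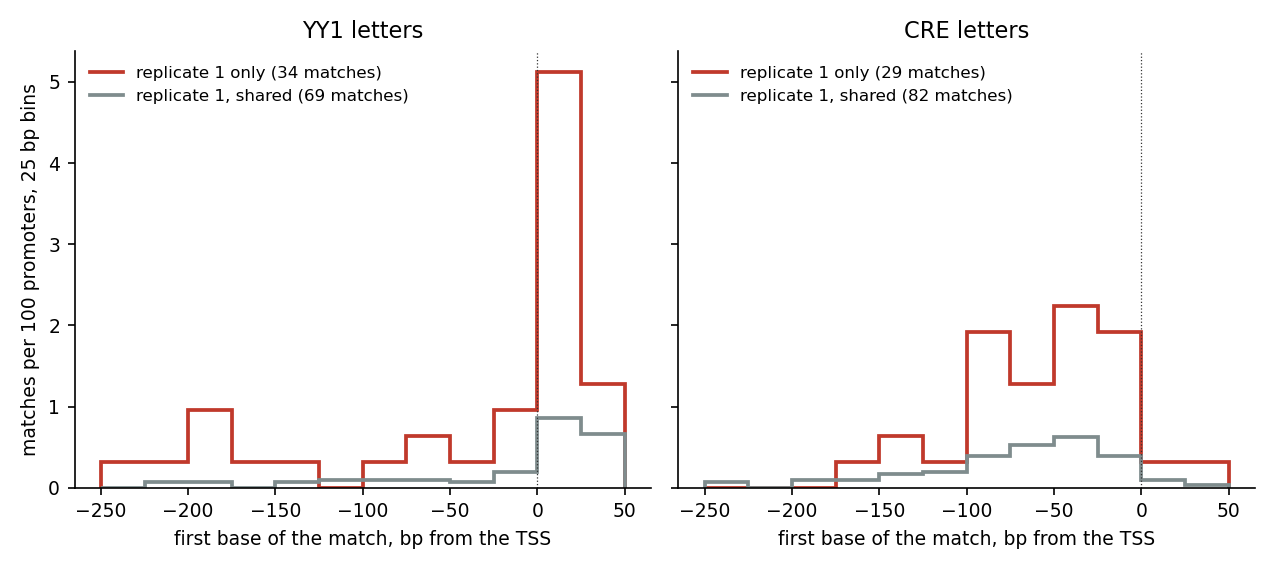
Start of each match to the YY1 (left) and CRE (right) letters relative to the TSS, in matches per 100 promoters and bins of 25 bp, for replicate 1 only peaks (red) and shared replicate 1 peaks (grey). Within the bases searched, which end 50 bp after the TSS, YY1 matches peak just after it in both groups (medians 11.5 and 13.0 bp). CRE matches lie mostly in the 100 bp before the TSS.

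Among shared peaks, the YY1 letters were most frequent where the partner was weak. This split was chosen after the YY1 share had been seen. The rule used absence from the replicate 2 list, and the split uses fold in that same list, so it is not independent of the rule. Shared replicate 1 peaks whose partner was in the weakest quartile of the replicate 2 list by fold held AAGATGGCG at 21 of 265 promoters (7.92%, 4.97 to 11.9). The share was 3.37% (2.04 to 5.21) in the second quartile, 1.48% (0.831 to 2.43) in the third and 0.927% (0.463 to 1.65) in the strongest. Split by their own fold in replicate 1, shared peaks ran from 1.44% to 2.93%, with overlapping intervals. Within the members the letters were in 6.81% of 191 promoters in the weakest quartile of the replicate 1 list (3.67 to 11.4), 12.8% of 78 (6.32 to 22.3) in the second and 19.4% of 31 (7.45 to 37.5) in the third, with overlapping intervals. In the strongest quartile, 1 of 12 had them. CRE letters showed no such order in shared peaks, with 4.15%, 2.48%, 2.96% and 1.94% from the weakest to the strongest partner and overlapping intervals.

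**Figure D5:**
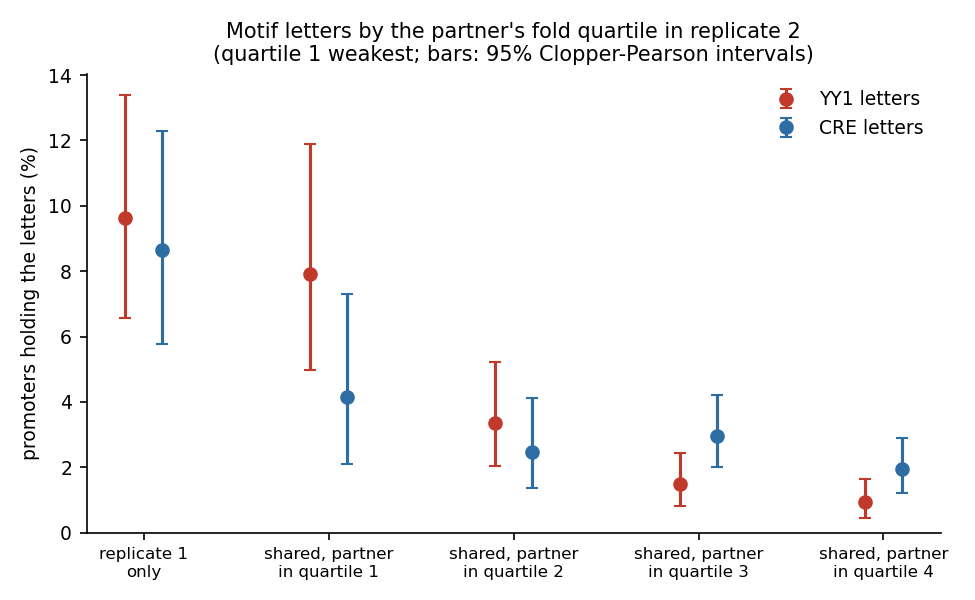
Percent of promoters holding the YY1 (red) and CRE (blue) letters at replicate 1 only peaks and at shared replicate 1 peaks, the latter split by the quartile of the replicate 2 list, by fold, in which their partner falls (1 weakest). Bars are 95% Clopper-Pearson intervals. Among shared peaks the YY1 share falls from 7.92% with the weakest partners to 0.927% with the strongest. It was 9.62% at replicate 1 only peaks, which have no replicate 2 value in the lists used here.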

How the data were processed

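INO80 ChIP-seq peaks of 2 replicates were used, and the inputs have a read number but no peak list here. Per the submitters' processing notes, the tools included BWA, Picard 2.21.2, SAMtools 1.11 and MACS2 2.2.7.1 with the builds GRCm38 and mm10. The sources used here do not name the settings or the control of the peak calling. The authors deposited, for each peak, a fold enrichment ratio, a −log10 p and a −log10 q, and a score of 10 times the −log10 q, truncated. Read numbers were deposited in M (1e6 reads), rounded. The deposited reproducible set has an irreproducible discovery rate limit of 0.05 in its title.

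Peaks sharing at least 1 bp counted as partners. Distances ran from peak edges to the ends of the 21887 protein-coding genes of RefSeq GRCm38.p6 (window 1 kb). Each peak took the RefSeq promoter whose TSS was nearest its centre, within 1 kb. Promoters were not analysed on chromosome 18 (15 members). Lists held 561 symbols, 556 of them matched, and 12 classes were defined by symbol patterns. The members and lists were chosen with earlier results of these data known. Motif strings were set after the peaks had been examined. A first search used 16 strings with 1 promoter per gene. Its counts were seen before 1 promoter per peak was adopted, the 10 letters of NRF1 were cut to 8 and a ZBTB33 string of 10 letters was dropped. The splits by fold and partner rank came after that. Genes were named by rank of fold, width or distance, and up to 4 per list by fold. An item withheld for evaluation is not reported here. The overlap and motif counts were tested on simulated data. Python 3.11.15, pandas 2.3.3, NumPy 2.4.6 and SciPy 1.17.1 were used.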

Additional observations from a re-analysis of the deposited data

How the results depend on the processing

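Counts of members depended on the thresholds. There were 470 when a partner had to cover 50% of the peak and 398 when a replicate 2 peak within 1 kb was a partner. There were 119 at a q of 0.001 or less in replicate 1, 608 when partners needed that q, and 2239 against the reproducible set. The share near gene ends was 84.0% as reported, 80.8% at 500 bp, 90.3% at 5 kb, 82.5% from peak centres and 88.5% for genes of all types. It was 86.6% for members at a q of 0.001 or less, and, by a split chosen after seeing the data, 82.6% below and 94.0% at or above the replicate 1 median fold. Shared peaks gave 67.7%, 86.8%, 67.5%, 79.3%, 75.9%, 71.4% and 76.4% under the same 7 settings, each below the members. At a q of 0.001 or less, median width was 520 bp and median fold 3.19. With a window of 5 kb, 79 genes of the lists and classes were near a member, against 64. The rest was chosen after seeing the data. With RefSeq TSSs beside gene ends, the share near a gene was 90.8% (shared 83.0%), and 70 genes of the lists and classes were near a member. YY1 letters were in 13.3% of member promoters with the TSS inside the peak (shared 2.2%), 15.3% at a q of 0.001 or less (2.18%), 9.54% without ribosomal protein genes (2.15%), and 11.3% of 364 with 1 promoter per gene, as first searched (2.46% of 3216). CRE letters gave 10.3% with the TSS inside (2.60%) and 8.52% per gene (2.58%). NRF1 letters of the first search, 10 in number, gave 4.49% (2.47 to 7.41) against 1.12% (0.779 to 1.57).

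No paired analysis was possible because the inputs have no peak list here and the rule itself compares replicate 1 with replicate 2. Leaving out replicate 1 leaves no members, and leaving out replicate 2 leaves no list to compare with, so neither was run. Members depend on 1 library, with no signal values outside the listed peaks.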

Other observations

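Small RNA genes were near a few members. Ends of tRNA genes lay within 1 kb of 4 members (0.998%, interval 0.272 to 2.53), against 0.212% (0.102 to 0.389) of shared peaks. Ends of snoRNA genes lay within 1 kb of 3 (0.748%, 0.155 to 2.17), against 0.169% (0.0732 to 0.334), and Snord43, which lies in an intron of Rpl3, was among them. Both pairs of intervals overlap. Ends of miRNA genes went the other way, within 1 kb of 2 members (0.499%, 0.0605 to 1.79) and of 1.19% of shared peaks (0.897 to 1.54), also with overlapping intervals. Ends of lncRNA genes were within 1 kb of 52 members (13.0%, 9.84 to 16.7) and of 16.1% of shared peaks (15.1 to 17.2).

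Across chromosomes, the share of replicate 1 peaks without a partner ran from 9 of 257 on chromosome 6 to 46 of 406 on chromosome 11 (11.3%). Chromosome X held 2 members of 36 peaks, 1 of them at Hcfc1.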
